A study of Drosophila melanogaster with 6 samples.

Results

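The seminal fluid and accessory gland genes of adult male Drosophila melanogaster were compared between males that overexpress CR46018, a long non-coding RNA, and control males. The set was chosen by name: gene identifiers whose FlyBase symbol begins with Acp or Sfp followed by a cytological number, leaving out the Acp65A and Acp76A symbols, together with SP (formerly Acp70A), Dup99B, Anp and Est-6. This gave 48 of the 17558 genes in the deposited table, namely 16 Acp genes, 28 Sfp genes and 4 others. The overexpressing flies had the genotype Gal80ts; Tub> CR46018, and the control flies had the genotype Gal80ts; Tub-Gal4/P{CaryP}attP40, with 3 libraries of each. Both groups therefore carried a temperature-sensitive Gal80, which holds Gal4 in check at the permissive temperature, and a tubulin promoter driver, expressed in nearly every cell. The adult males had been injected with M. luteus (Micrococcus luteus, a Gram-positive bacterium) 12 h before collection, and no library came from uninjected flies. The labels give no age and no dissected tissue, and nothing in them states that replicate libraries were made from separately reared or injected flies. The p-values therefore rest on library-to-library spread that could be technical.

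Seminal fluid proteins are made mainly in the paired accessory glands, with further contributions from the ejaculatory duct and ejaculatory bulb, and are passed to the female with sperm. In the mated female they raise egg laying, lower receptivity to other males, form the mating plug and help sperm to be stored and to compete. The accessory gland has abundant main cells and a few secondary cells, and the Acp and Sfp names stand for accessory gland protein and seminal fluid protein. Andropin (Anp) is an antibacterial peptide of the ejaculatory duct and Esterase 6 (Est-6) an esterase of the same duct, so the set includes products of more than 1 part of the male tract. In RNA from a mixture of tissues, fewer gland cells and less of a transcript per cell cannot be told apart.

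Levels are FPKM (a count of fragments divided by gene length and library size), which lets levels of different genes be set side by side. Total FPKM was lower in overexpression libraries (646862 to 668227) than in controls (694593 to 708815), so a comparison between libraries also depends on the scaling, and values after rescaling are given where they change a call. The libraries held 15988428 to 17396893 recovered reads in overexpressing flies and 15084193 to 16935563 in controls. Library sizes implied by the FPKM scale were larger, 19080795 to 20573350 in overexpressing flies and 17515796 to 19237779 in controls. CR46018 itself had 3, 1 and 0 reads in overexpression replicates 1 to 3, or 0.264, 0.0902 and 0 FPKM, and 0 reads in each control library, so its overexpression is barely seen in these counts. The 3 libraries of a group differed by more than counting noise, and none was a copy of another. The design does not separate the transgene from other differences in genetic background between the 2 genotypes.

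Of the 48 genes, 47 were read in all 6 libraries and 47 passed the filter of a mean of at least 1 FPKM. Their mean levels ran from 7.76 to 1501 FPKM with a median of 112 FPKM, and 24 of them were above 100 FPKM. The 10 most abundant supplied 61.6% to 65.3% of the summed FPKM of the set. The 3 overexpression libraries held 8986, 10168 and 8687 summed FPKM, against 11688, 10464 and 11131 FPKM in the 3 control libraries. The groups did not overlap in this sum, which averaged 9280 ± 783 FPKM in overexpressing flies and 11094 ± 613 FPKM in controls (SD, n = 3 each), a ratio of 0.836. As a share of each library's total FPKM, the set made up 1.345%, 1.572% and 1.32% in overexpressing flies, against 1.649%, 1.484% and 1.603% in controls, and on this scale the groups overlapped. The sum and the share are descriptions, with no test.

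**Figure D1:**
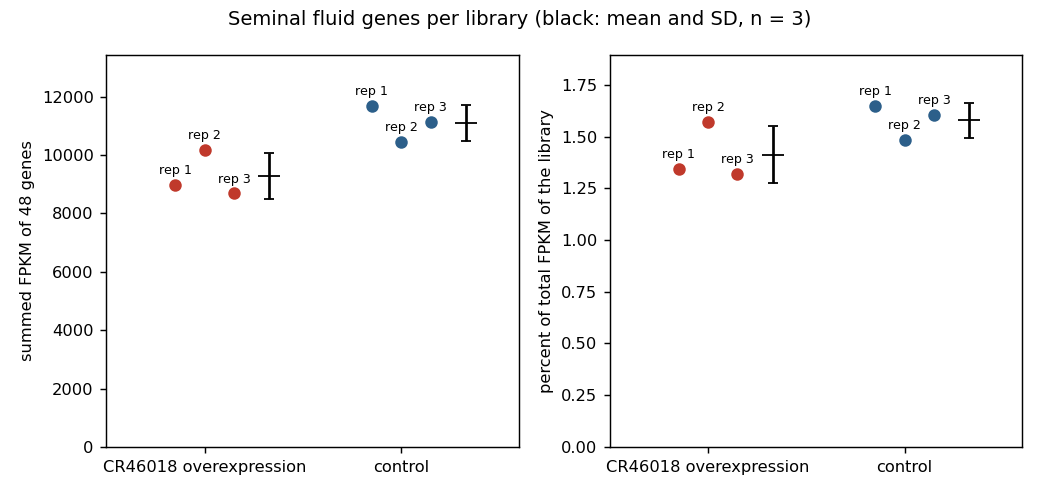
Summed FPKM of the 48 seminal fluid genes (left) and their percent of all FPKM (right) in each library, with mean and SD in black. The overexpression libraries lie at 8687 to 10168 summed FPKM and the control libraries at 10464 to 11688, while the percentages overlap.

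By limma on log2(FPKM + 1), with Benjamini-Hochberg adjustment over the 12251 genes tested and a threshold of 0.05, 7 of the 47 seminal fluid genes fell in overexpressing flies and 1 rose. The genes that fell were Acp54A1, Acp24A4, Sfp24Ba, Sfp24Bb, Sfp60F, Sfp33A2 and Sfp70A4, and the gene that rose was Acp32CD. That is 14.9% lower and 2.13% higher, beside 6.31% lower and 2.45% higher among all genes tested. The median log2 fold change was -0.14 over the set and 0.00 over all genes, and 41 of the 47 estimates were below 0. The groups did not overlap in 15 genes that were lower and 1 that was higher in overexpressing flies, beside 16.2% and 12.2% of all genes tested. Over all genes 300 were higher and 773 lower. After each library was rescaled to the same FPKM total these became 826 higher and 484 lower, and after quantile normalization 399 higher and 652 lower. The seminal fluid genes called lower then numbered 4 and 6. Rescaling put the median of the set at -0.05, beside 0.08 over all genes, and quantile normalization put it at -0.07, beside 0.02.

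Within each group, 1 library was high and another low for most seminal fluid genes. Overexpression replicate 2 was the highest of its group for 37 of the 47 genes, and replicate 3 was the lowest for 30. Among controls, replicate 1 was the highest for 25 genes and replicate 2 the lowest for 32. On average the genes lay 0.11 above their group mean on the log2 scale in overexpression replicate 2 and 0.10 below it in control replicate 2, while the mean over all genes tested lay within 0.01 of its group mean in every library. By the same test 10 genes were lower without overexpression replicate 2, beside 4.75% of all genes in that fit. There were 2 without overexpression replicate 1 (all genes 4.71%) and 1 without overexpression replicate 3 (3.5%). There were 4, 6 and 5 without control replicates 1, 2 and 3 (3.74%, 3.61% and 5.13%). Acp24A4 was called lower in each of the 6 fits that left out 1 library.

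**Figure D2:**
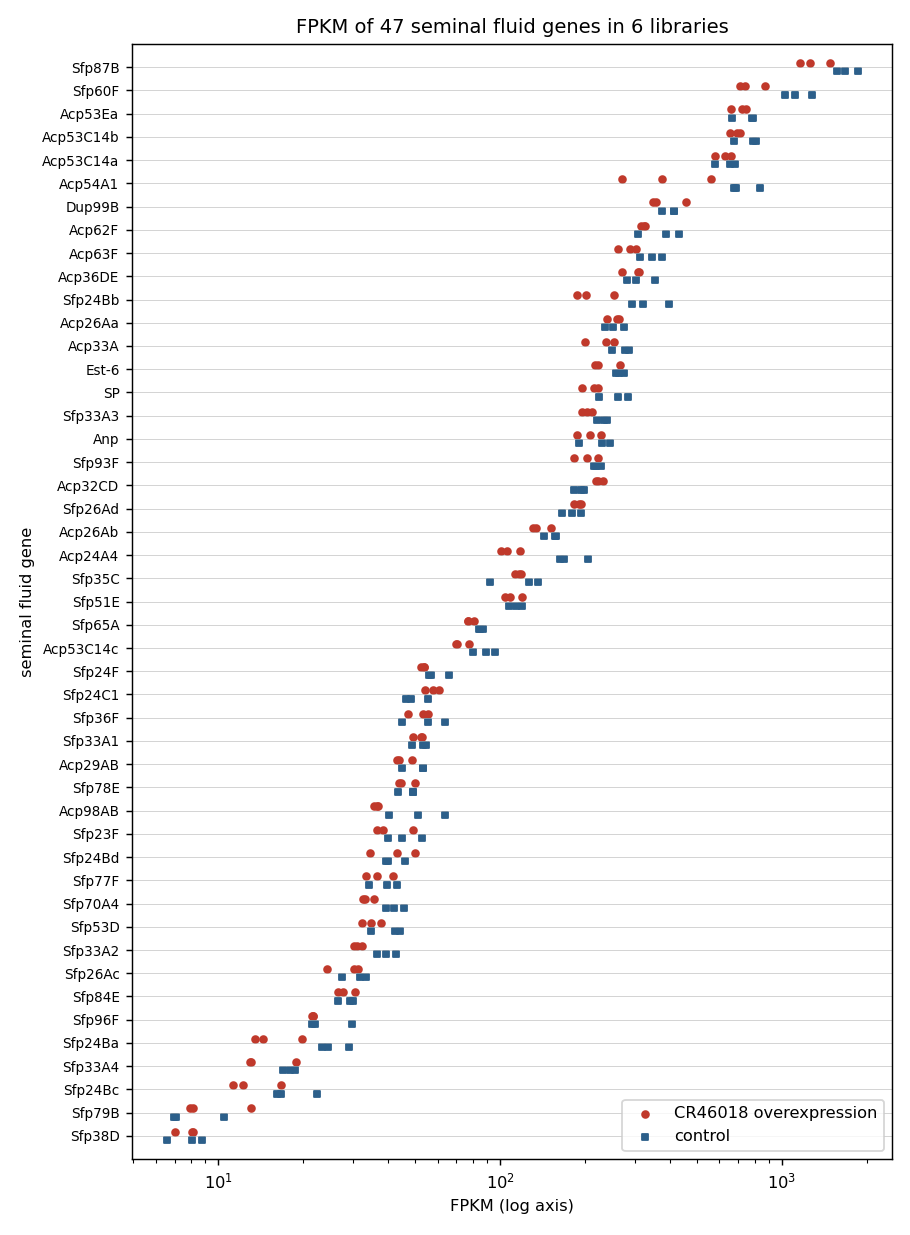
FPKM of the 47 measured seminal fluid genes in the 6 libraries, 1 row per gene and 1 point per library on a log axis, with overexpression libraries as circles above control libraries as squares. Levels span from 7.76 FPKM on average (Sfp38D) to 1501 FPKM (Sfp87B), and most genes have overlapping groups.

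The genes of the set best known for acting on the mated female are SP and Dup99B. Sex Peptide (SP) switches the female to egg laying and refusal of males through the Sex Peptide receptor, and Dup99B is a related peptide of the ejaculatory duct that acts through the same receptor. SP (chromosome arm 3L, 13301635 to 13301922) measured 195, 216 and 223 FPKM in overexpressing flies, against 224, 263 and 284 FPKM in controls. The 2 groups came within 1 FPKM of touching, and the difference did not pass (log2 fold change -0.27 ± 0.09 SE, limma adjusted p = 0.118, 95% interval -0.49 to -0.06). The difference passed under 1 of 15 alternatives, the fit without control replicate 1 (log2 fold change -0.37, limma adjusted p = 0.0414). Adjusted p reached 0.302 under the others. Dup99B (3R, 29715068 to 29715377) measured 358, 458 and 348 FPKM in overexpressing flies, against 376, 413 and 413 FPKM in controls. Its groups overlapped, and its interval ran from -0.30 to 0.18 (log2 fold change -0.06 ± 0.10 SE, limma adjusted p = 0.807). Its sign turned positive with rescaling and with quantile normalization.

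Ovulin, the product of Acp26Aa, stimulates ovulation and is cut by proteases of the seminal fluid after mating. Acp26Aa measured 260, 264 and 239 FPKM in overexpressing flies, against 275, 237 and 251 FPKM in controls. The groups covered nearly the same range, with a log2 fold change of 0.00 ± 0.07 SE and a 95% interval from -0.16 to 0.16 (limma adjusted p = 0.998). Its neighbour Acp26Ab, which ends 20 bp away on 2L, measured 138.9 ± 11.5 FPKM in overexpressing flies and 152.6 ± 7.98 FPKM in controls (SD, n = 3 each, limma adjusted p = 0.3). Sfp26Ad, also at 26A, measured 189 ± 5.83 FPKM in overexpressing flies and 179.6 ± 14.2 FPKM in controls (limma adjusted p = 0.552). The 4 genes at 26A held 0 calls in either direction, beside 6.31% lower and 2.45% higher among all genes tested. Their log2 fold changes lay between -0.14 and 0.08.

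Several proteins of the set are known for sperm storage and sperm competition. Acp36DE is a large glycoprotein needed for sperm to accumulate in the female's storage organs. It measured 308, 310 and 272 FPKM in overexpressing flies, against 355, 282 and 303 FPKM in controls, with overlapping groups (limma adjusted p = 0.695). Acp29AB, a lectin that helps sperm to be retained in storage, measured 45.2 ± 2.93 FPKM in overexpressing flies and 50.5 ± 4.76 FPKM in controls (SD, n = 3 each, limma adjusted p = 0.302). Acp62F, a trypsin inhibitor, measured 317, 324 and 326 FPKM in overexpressing flies, against 432, 308 and 386 FPKM in controls. Control replicate 2 reached below all overexpression libraries, and the difference did not pass (log2 fold change -0.21, limma adjusted p = 0.315). Acp62F passed under 1 of 15 alternatives, the fit without control replicate 2 (log2 fold change -0.34, limma adjusted p = 0.0344). Acp63F measured 284.7 ± 20.2 FPKM in overexpressing flies and 345 ± 30.9 FPKM in controls, without overlap between the groups (limma adjusted p = 0.0773). Voom on recovered reads was the 1 of 15 alternatives under which Acp63F passed (adjusted p = 0.0226).

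The Acp53 genes form a cluster of related, abundant accessory gland genes on 2R, from 16744295 to 16751495 with Sfp53D included, and Acp53Ea has been linked to sperm competition. Acp53Ea measured 722, 743 and 660 FPKM in overexpressing flies, against 791, 663 and 786 FPKM in controls. Acp53C14b averaged 683 ± 27.8 FPKM in overexpressing flies and 759 ± 72.8 FPKM in controls, and Acp53C14a averaged 622 ± 39.9 FPKM in overexpressing flies and 638 ± 54.8 FPKM in controls (SD, n = 3 each). None of these 3 passed by limma, with adjusted p from 0.311 to 0.842, and the small negative differences of Acp53Ea and Acp53C14a turned positive with rescaling. Acp53C14c, the least abundant of the 4 Acp53 genes, measured 69.98, 77.5 and 70.06 FPKM in overexpressing flies, against 89.31, 80.23 and 95.96 FPKM in controls, just short of the threshold (log2 fold change -0.28 ± 0.08 SE, limma adjusted p = 0.0604). It passed without control replicate 2 (limma adjusted p = 0.0391), with a filter at 5 FPKM (adjusted p = 0.0454) and with voom on recovered reads (adjusted p = 0.0284). Sfp53D measured 34.97 ± 2.82 FPKM in overexpressing flies and 40.4 ± 4.97 FPKM in controls (limma adjusted p = 0.272).

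3 of the 7 falls were close to each other on 2L, where 6 seminal fluid genes lie within 33116 bp, from 3667977 to 3701092. The stretch was singled out after the values were seen. In genomic order they are Sfp24Ba, Sfp24Bd, Sfp24Bb, Sfp24Bc, Acp24A4 and Sfp24C1, and several genes here encode Kunitz-type protease inhibitors. The first 4 are separated by gaps of 139, 126 and 355 bp. Acp24A4 follows after 22602 bp and Sfp24C1 after a further 6768 bp.

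Acp24A4 measured 106, 118 and 101 FPKM in overexpressing flies, against 205, 168 and 163 FPKM in controls. All 3 overexpression libraries lay well below the lowest control (log2 fold change -0.71 ± 0.10 SE, limma adjusted p = 0.00436). It was the gene of the set with the smallest p, and it passed under all 15 alternatives, with adjusted p from 8e-05 to 0.0193. Sfp24Bb measured 201, 253 and 187 FPKM in overexpressing flies, against 396, 322 and 294 FPKM in controls (log2 fold change -0.66 ± 0.14 SE, limma adjusted p = 0.0239). Sfp24Ba, a much less abundant transcript, measured 13.5, 19.9 and 14.4 FPKM in overexpressing flies, against 29.1, 24.5 and 23.3 FPKM in controls (-0.67 ± 0.14, limma adjusted p = 0.026). In both genes overexpression replicate 2 came nearest to the controls without reaching them. Both lost their call without overexpression replicate 1 or 3 or control replicate 1 or 2, with adjusted p from 0.0561 to 0.082 for Sfp24Bb and from 0.0694 to 0.0908 for Sfp24Ba. Sfp24Ba lost it with no filter too (adjusted p = 0.0509).

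The gene between them did not follow. Sfp24Bd measured 43.16, 50.03 and 34.67 FPKM in overexpressing flies, against 39.5, 46.1 and 40.0 FPKM in controls, with overlapping groups and a 95% interval from -0.28 to 0.30 (limma adjusted p = 0.969). Sfp24Bc measured 12.2, 16.7 and 11.3 FPKM in overexpressing flies, against 22.5, 16.6 and 16.1 FPKM in controls (log2 fold change -0.44 ± 0.16 SE, limma adjusted p = 0.149). Only overexpression replicate 2 reached into its control range. Sfp24C1 had a positive difference, at 54.4, 60.6 and 57.8 FPKM in overexpressing flies, against 55.4, 46.5 and 48.3 FPKM in controls (0.20 ± 0.08, limma adjusted p = 0.159). Neighbouring members of this stretch therefore differed in their estimates, from -0.71 to 0.20.

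Of the 10 other tested genes inside the stretch, 2 were called lower and 1 higher, beside 6.31% lower and 2.45% higher among all genes tested. The following were named after their values were seen. CG16704, 596 bp from Acp24A4, fell to 79.0 ± 9.55 FPKM in overexpressing flies, against 124 ± 14.8 FPKM in controls (SD, n = 3 each, log2 fold change -0.65, limma adjusted p = 0.0105). CG10031, 1581 bp from Sfp24C1, fell to 56.0 ± 5.08 FPKM in overexpressing flies, against 77.2 ± 9.27 FPKM in controls (limma adjusted p = 0.0272). That call was lost with rescaling (adjusted p = 0.0527) and without overexpression replicate 2 or 3 or control replicate 1 or 2 (adjusted p = 0.057, 0.0876, 0.0634 and 0.0668). CG3604 rose to 42.3 ± 5.92 FPKM in overexpressing flies, against 22.03 ± 1.13 FPKM in controls (log2 fold change 0.90, limma adjusted p = 0.00188). IM33, an immune-induced peptide gene and the most abundant of the stretch, measured 3303 ± 85.1 FPKM in overexpressing flies and 3124 ± 316 FPKM in controls (limma adjusted p = 0.599).

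**Figure D3:**
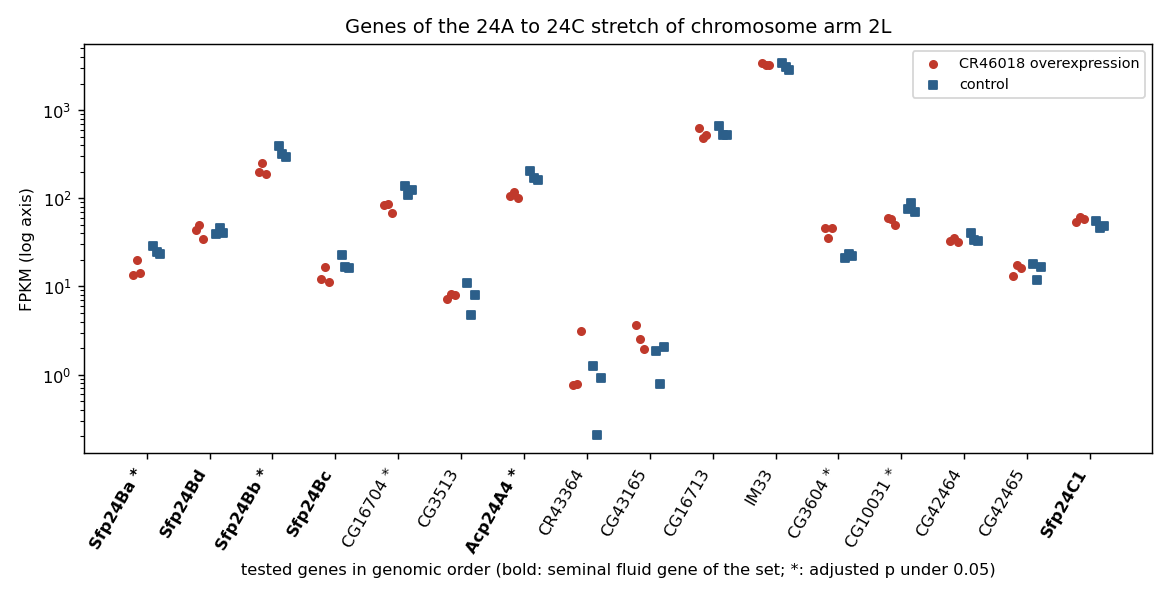
FPKM in each library, on a log axis, of the 16 tested genes in the stretch of chromosome arm 2L that holds 6 seminal fluid genes (bold), in genomic order, with overexpression circles left of control squares and an asterisk for adjusted p under 0.05. Sfp24Ba, Sfp24Bb, Acp24A4, CG16704 and CG10031 are lower in overexpressing flies and CG3604 is higher, and the other 10 genes did not pass.

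Sfp60F, the second most abundant gene of the set, lies beside 2 genes of the ejaculatory bulb. It measured 737, 868 and 709 FPKM in overexpressing flies, against 1275, 1115 and 1022 FPKM in controls. The groups stood clearly apart (limma adjusted p = 0.0149, log2 fold change -0.56 ± 0.10 SE). The call held under 14 of 15 alternatives, failing without overexpression replicate 3 (adjusted p = 0.0604). EbpII and Ebp, which encode proteins of the ejaculatory bulb, lie 872 bp and 2430 bp from it on 2R. EbpII measured 877, 1063 and 874 FPKM in overexpressing flies, against 1428, 1179 and 1127 FPKM in controls, and Ebp measured 886, 1023 and 901 FPKM in overexpressing flies, against 1341, 1184 and 1048 FPKM in controls. Neither group pair overlapped, and both fell short of the threshold (log2 fold changes -0.41 and -0.34, limma adjusted p = 0.0609 and 0.0743). EbpIII, encoded elsewhere on 2R, measured 1494 ± 29.01 FPKM in overexpressing flies and 1761 ± 135 FPKM in controls (SD, n = 3 each, limma adjusted p = 0.0812). With voom on recovered reads Ebp, EbpII and EbpIII passed (adjusted p = 0.015, 0.00901 and 0.0259). EbpII passed too with a filter at 5 FPKM (0.0431) and EbpIII with quantile normalization (0.0319). Among the fits without 1 library, EbpII passed without overexpression replicate 2 (0.0369). Ebp and EbpIII passed without control replicate 3 (0.0383 and 0.0418).

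Acp54A1 had the largest fold change and the widest spread. It measured 271, 561 and 376 FPKM in overexpressing flies, against 673, 686 and 838 FPKM in controls. All overexpression libraries were below all controls, and overexpression replicate 2 was well above replicate 1 (log2 fold change -0.92 ± 0.23 SE, limma adjusted p = 0.0472). It was the call closest to the threshold, and it passed under 6 of 15 alternatives, with adjusted p up to 0.132. It was lost with no filter (adjusted p = 0.0866), with rescaling (adjusted p = 0.0698), with quantile normalization (adjusted p = 0.0837), and in each fit that left out 1 library except that without overexpression replicate 2.

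The 2 other falls were small and had tight replicates. Sfp33A2 measured 30.4, 32.3 and 31.1 FPKM in overexpressing flies, against 39.3, 36.6 and 42.9 FPKM in controls (log2 fold change -0.33 ± 0.07 SE, limma adjusted p = 0.0222). Its neighbours on 2L went the same way without passing. Sfp33A4, 226 bp away, measured 14.95 ± 3.34 FPKM in overexpressing flies and 17.8 ± 0.902 FPKM in controls, and Sfp33A3, 1862 bp away, measured 203 ± 9.03 FPKM in overexpressing flies and 232 ± 9.78 FPKM in controls (SD, n = 3 each, limma adjusted p = 0.285 and 0.0849). Sfp70A4, which lies 4774 bp from SP on 3L, measured 33.04, 35.73 and 32.62 FPKM in overexpressing flies, against 45.5, 39.3 and 41.9 FPKM in controls (-0.31 ± 0.07, limma adjusted p = 0.0292). Sfp33A2 and Sfp70A4 lost their calls with rescaling (adjusted p = 0.0774 and 0.0868) and without overexpression replicate 1 (adjusted p = 0.0663 and 0.08) or 3 (adjusted p = 0.0773 and 0.106) or control replicate 1 (adjusted p = 0.066 and 0.0907). Both lost it with voom on recovered reads (adjusted p = 0.0538 and 0.0614), and Sfp70A4 without control replicate 3 too (adjusted p = 0.0634).

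Acp32CD was the gene that rose. It measured 223, 231 and 219 FPKM in overexpressing flies, against 193, 183 and 199 FPKM in controls. Every overexpression library was above every control, by a small step (log2 fold change 0.22 ± 0.05 SE, 95% interval 0.10 to 0.35, limma adjusted p = 0.0363). Among the fits that left out 1 library the call held in 1 of 6, that without control replicate 3, and the others gave adjusted p from 0.075 to 0.105.

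**Figure D4:**
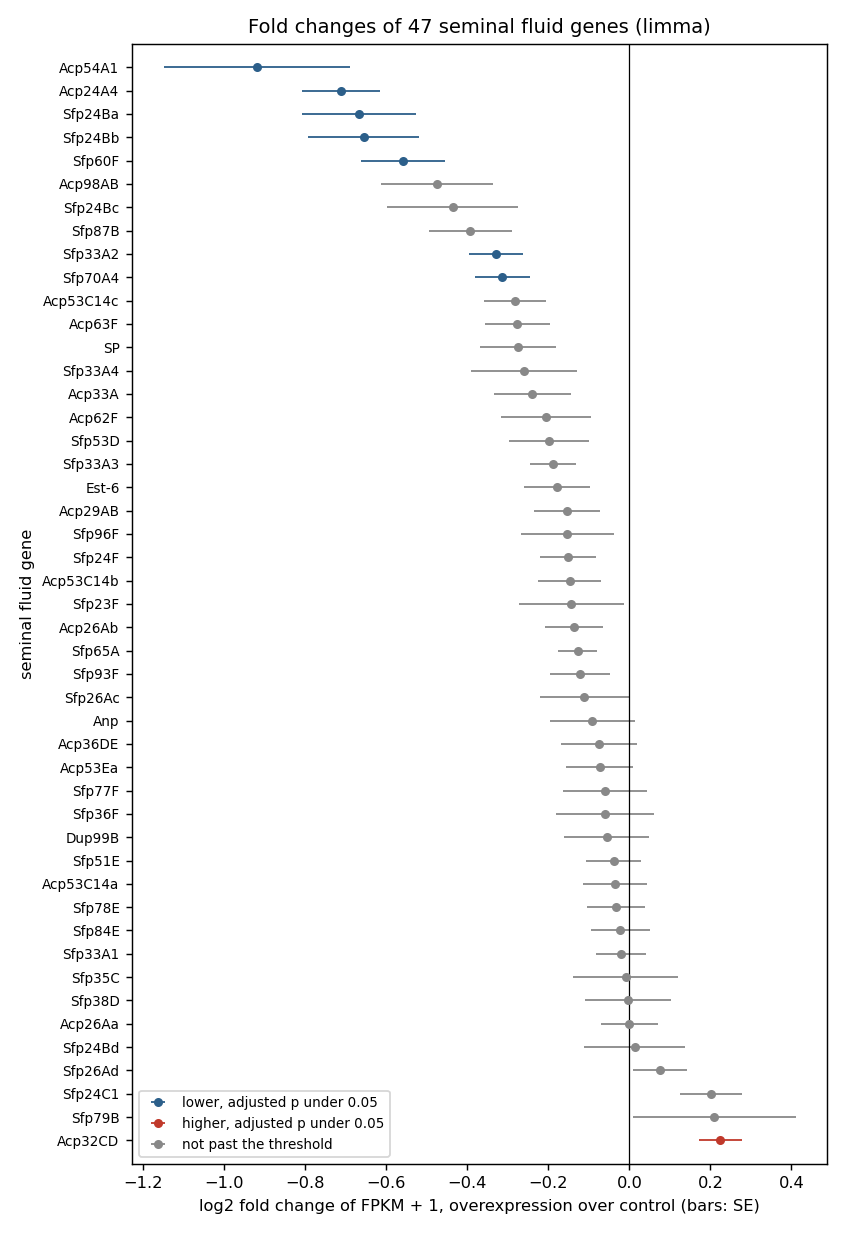
Limma log2 fold changes of FPKM + 1 (overexpression over control, bars are SE) for the 47 measured seminal fluid genes, in order of size. The 7 genes past the threshold on the lower side run from -0.92 to -0.31, and Acp32CD at 0.22 is the 1 gene past it on the higher side.

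Est-6 and Anp, named above as genes of the ejaculatory duct, had small differences. Est-6 (3L, 12188818 to 12190705) measured 217, 267 and 223 FPKM in overexpressing flies, against 274, 258 and 265 FPKM in controls. Overexpression replicate 2 lay among the controls, and the difference did not pass (log2 fold change -0.18, limma adjusted p = 0.236). Est-6 passed under 1 of 15 alternatives, the fit without overexpression replicate 2 (log2 fold change -0.27, limma adjusted p = 0.0362). Anp (3R, 30209948 to 30210382) measured 187, 229 and 208 FPKM in overexpressing flies, against 191, 230 and 245 FPKM in controls, with overlapping groups and an interval from -0.33 to 0.15 (limma adjusted p = 0.668). Anp lies in the cecropin cluster, whose peptides are secreted by the fat body during infection. CecA1, 491 bp from Anp, was at 1415, 1060 and 1386 FPKM in overexpressing flies, against 584, 657 and 406 FPKM in controls (log2 fold change 1.24 ± 0.18 SE, limma adjusted p = 0.00611). CecA2, 1773 bp from Anp, was at 386, 295 and 363 FPKM in overexpressing flies, against 88.0, 85.8 and 106 FPKM in controls (1.88 ± 0.12, limma adjusted p = 0.000289). CecA1 and CecA2 are close copies, so reads may be divided between them. CecB, 2932 bp away, measured 54.5 ± 4.85 FPKM in overexpressing flies and 34.0 ± 11.2 FPKM in controls (SD, n = 3 each, limma adjusted p = 0.0935, and 0.0158 with voom on recovered reads). Anp, the male tract member of this cluster, did not pass in either direction.

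Sfp87B and Acp98AB came close to the threshold. Sfp87B, the most abundant gene of the set, measured 1258, 1480 and 1163 FPKM in overexpressing flies, against 1860, 1678 and 1566 FPKM in controls (log2 fold change -0.39 ± 0.10 SE, limma adjusted p = 0.0531). It passed without overexpression replicate 2 (adjusted p = 0.0222), with a filter at a mean of 5 FPKM (adjusted p = 0.0371) and with voom on recovered reads (adjusted p = 0.00696). Acp98AB, an early described accessory gland transcript, measured 35.6, 36.5 and 36.8 FPKM in overexpressing flies, against 40.4, 51.1 and 63.6 FPKM in controls (-0.48 ± 0.14, limma adjusted p = 0.0778). Acp98AB passed under 1 of 15 alternatives, the fit without control replicate 1 (limma adjusted p = 0.0122). It lies 177 bp from HSPBAP1, a gene named after its values were seen, which fell to 3.41, 4.31 and 3.07 FPKM in overexpressing flies, against 41.2, 9.11 and 23.6 FPKM in controls (limma adjusted p = 0.0181). The call of HSPBAP1 was lost without overexpression replicate 1 or 3 or control replicate 3 (adjusted p = 0.057, 0.0643 and 0.0511). Of the 39 seminal fluid genes that did not pass, 34 had an estimate below 0 and 5 above, with adjusted p from 0.0531 to 0.998. At an unadjusted p under 0.05 there were 16 genes lower and 2 higher of the 47, beside 13.5% and 9.95% of all genes tested.

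Calls were counted by chromosome arm, level and name, beside 6.31% lower and 2.45% higher among all genes tested. Of the 23 on 2L, 4 were called lower and 1 higher, and of the 24 measured elsewhere, 3 were called lower and 0 higher. The falls on 2L include the 3 of the 33116 bp stretch above. Of the falls elsewhere, Sfp60F and Acp54A1 lie on 2R and Sfp70A4 on 3L, and no gene on 3R was called. The 24 more abundant genes had 4 falls and a median log2 fold change of -0.14, and the 23 less abundant had 3 falls and a median of -0.14. The Acp names had 2 falls of 15 and the Sfp names 5 of 28. Replicate spread was moderate, with a median coefficient of variation of 7.43% in overexpressing flies and 9.44% in controls and a largest of 36.6% and 24.4%. The 46 genes whose FPKM came out as whole reads had 29 to 14166 reads per library.

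Beyond the set, a list of genes that act with SP or on other seminal fluid proteins was examined. Long-lasting SP action needs male proteins that help SP to bind sperm, and further genes that act in the female. Of the 11 listed genes, all tested, 1 rose and 1 fell, with a median log2 fold change of -0.04. Each call is 9.09% of the list, beside 2.45% higher and 6.31% lower among all genes tested. Esp, hdly and frma are the members of the list known for acting in the female, and 0 of these 3 passed. Of them frma came closest, at 10.81 ± 1.64 FPKM in overexpressing flies and 14.3 ± 0.686 FPKM in controls. Its groups did not overlap (log2 fold change -0.38, limma adjusted p = 0.0555). It passed with voom (adjusted p = 0.0104), a filter at 5 FPKM (0.04) and without overexpression replicate 1 (0.0216). Esp had a log2 fold change of 0.193 and hdly -0.106. The other 8 genes of the list held both calls and had a median of -0.02. The lectin gene lectin-46Cb rose to 108 ± 2.76 FPKM in overexpressing flies, against 92.3 ± 2.42 FPKM in controls (log2 fold change 0.23 ± 0.05 SE, n = 3 each, limma adjusted p = 0.0242). Its neighbour and network partner lectin-46Ca measured 109 ± 4.66 FPKM in overexpressing flies and 95.5 ± 1.56 FPKM in controls, and the network gene CG17575 measured 151 ± 2.50 FPKM in overexpressing flies and 132 ± 5.24 FPKM in controls, both without overlap (limma adjusted p = 0.0578 and 0.0559). Both passed with rescaling (adjusted p = 0.0183 and 0.0204), quantile normalization (0.0241 and 0.0225), a filter at 5 FPKM (0.0493 and 0.0481) and voom on recovered reads (0.0368 and 0.0355). The network gene aqrs fell to 61.9, 63.9 and 63.3 FPKM in overexpressing flies, against 83.1, 72.5 and 78.5 FPKM in controls (-0.30 ± 0.06, limma adjusted p = 0.0206, and 0.071 with rescaling). When single libraries were left out, the call of lectin-46Cb held only without overexpression replicate 1 (adjusted p elsewhere 0.0519 to 0.0968). That of aqrs held only without overexpression replicate 2 or control replicate 2 (elsewhere 0.0519 to 0.0694).

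Of 21 other male reproductive tract transcripts tested, 0 rose and 2 fell, with a median log2 fold change of -0.02. That is 0% higher and 9.52% lower, beside 2.45% higher and 6.31% lower among all genes tested. Mst57Da, an abundant accessory gland transcript, fell to 2711, 2593 and 2663 FPKM in overexpressing flies, against 3458, 3348 and 3762 FPKM in controls. Its groups stood far apart (limma adjusted p = 0.00961, log2 fold change -0.41 ± 0.07 SE). It passed in each fit that left out 1 library. Its cluster neighbour Mst57Db measured 623 ± 9.60 FPKM in overexpressing flies and 762 ± 91.7 FPKM in controls (SD, n = 3 each, limma adjusted p = 0.0788, and 0.0208 with voom on recovered reads). Sfp96F, which lies between Mst57Db and Mst57Dc, 491 and 362 bp from them, measured 21.7, 21.7 and 21.5 FPKM in overexpressing flies, against 21.97, 21.46 and 29.9 FPKM in controls (limma adjusted p = 0.482). BG642312 fell to 1277 ± 176 FPKM in overexpressing flies, against 1706 ± 141 FPKM in controls (limma adjusted p = 0.0485), a call lost with no filter (adjusted p = 0.0917) and with rescaling (adjusted p = 0.0935) and kept, among fits without 1 library, only without overexpression replicate 2 (elsewhere 0.0715 to 0.141).

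The 4 tested regulators of the accessory gland and the 4 genes of the ejaculatory duct and bulb had a value above 0 in every library. Since the labels give no dissected tissue, these values cannot be assigned to the gland, duct or bulb alone. The transcription factor gene prd, which the accessory gland needs to form, measured 10.05, 8.74 and 9.801 FPKM in overexpressing flies, against 10.7, 10.1 and 10.9 FPKM in controls (limma adjusted p = 0.293). Abd-B and dve, both needed in secondary cells, measured 2.33 ± 0.211 and 4.52 ± 0.253 FPKM in overexpressing flies and 2.33 ± 0.166 and 4.75 ± 0.436 FPKM in controls (SD, n = 3 each, limma adjusted p = 0.993 and 0.763). Gld, a glucose dehydrogenase gene of the ejaculatory duct, measured 50.6 ± 1.98 FPKM in overexpressing flies and 43.8 ± 1.62 FPKM in controls (limma adjusted p = 0.0583). Gld passed with rescaling (adjusted p = 0.0232), quantile normalization (0.0391), a filter at 5 FPKM (0.048) and voom (0.0269). In the limma test on log2(FPKM + 1) with all libraries, 0 of the 4 regulators, dsx included, and 0 of the 4 duct and bulb genes passed. Among all genes tested 6.31% were lower and 2.45% higher in that fit. With voom all 4 duct and bulb genes passed, Gld higher and the 3 bulb genes lower. Voom called more genes in the whole table, 450 higher and 954 lower, beside 300 and 773 in the main fit.

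Markers of other tissues moved by different amounts, beside 6.31% lower and 2.45% higher among all genes tested. Of 18 testis markers tested, 0 passed in either direction, and their summed level was 3946 to 4196 FPKM in overexpressing flies and 3974 to 4428 FPKM in controls. Of 6 fat body markers tested, 4 fell and 0 rose (median log2 fold change -1.13), with a summed level of 60.6 to 97.9 FPKM in overexpressing flies and 175 to 266 FPKM in controls. Fbp2 and Lsp1gamma passed the filter only through the controls. Their means were 0.513 and 0.738 FPKM in overexpressing flies, against 4.211 and 2.385 FPKM in controls. Their log2 fold changes of -1.295 and -0.955 set the median, and Lsp1gamma was called lower. The others had -1.933 (Obp99b), -1.759 (apolpp), -0.486 (Mtp) and -0.360 (Apoltp, not called). The lipoprotein gene apolpp, for example, fell to 31.7 ± 11.1 FPKM in overexpressing flies, against 106 ± 20.5 FPKM in controls (SD, n = 3 each, limma adjusted p = 0.00478). Of 9 muscle markers tested, 6 fell and 0 rose (median -0.46), with a summed level of 1646 to 1847 FPKM in overexpressing flies and 2103 to 2671 FPKM in controls. The myosin light chain gene Mlc2 fell to 438 ± 35.9 FPKM in overexpressing flies, against 710.0 ± 91.2 FPKM in controls (SD, n = 3 each, limma adjusted p = 0.00646). Of 6 ribosomal protein genes, 0 passed (median 0.00). Every matched fat body and muscle marker had a value above 0 in all 6 libraries, with the larval serum and fat body protein genes Lsp2 and Fbp1 below the filter. The lower levels of fat body and muscle markers stand beside the lower levels of the seminal fluid genes, and their part in the falls was not tested.

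**Figure D5:**
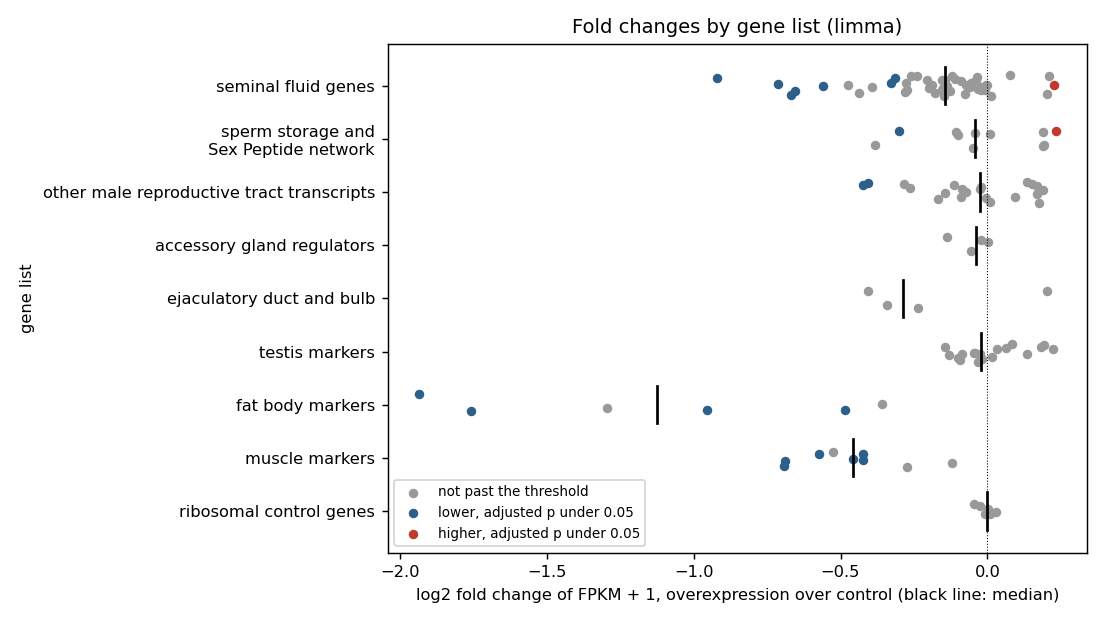
Limma log2 fold changes of the tested genes of each list, 1 point per gene, with the median as a black line and genes past the threshold in colour. The seminal fluid genes centre on -0.14, the testis markers on -0.02, the muscle markers on -0.46 and the fat body markers on -1.13. The fat body median is set by Fbp2 and Lsp1gamma, which passed the filter only through the controls.

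Acp95EF was the gene of the set without a value above 0. It was listed at 0 FPKM in all 6 libraries. All 243 bp of its exons (3R, 24228975 to 24229279) lie inside an exon of Spase22-23 on the opposite strand, which measured 41.8 ± 2.64 FPKM in overexpressing flies and 42.7 ± 3.38 FPKM in controls (SD, n = 3 each). The sources used here do not say whether the counting used strand or how it treated reads shared by 2 genes. Whether the 0 measures the transcript therefore cannot be told. Of the other genes, Sfp78E shares 134 of its 829 exonic bp with CG11248 and 24 bp with lncRNA:CR43978, Sfp84E shares 27 bp with Os-C, and Est-6 shares 10 bp with thoc6, each on the opposite strand.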

How the data were processed

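RNA was enriched for poly(A) and sequenced as paired ends, per the labels' protocols. The submitters' processing notes name HISAT2 2.0.5, featureCounts 1.5.0-p3, DESeq2 and dm6. The sources used here give neither the annotation release nor the strand setting. The authors deposited FPKM, 1 column per library. Of the gene identifiers, 17252 matched a symbol and 306 did not. Coordinates and exonic lengths came from the Ensembl annotation of the same assembly. FPKM times length gave whole reads, within 0.01, in all libraries for 97.6% of genes above 0 with a length. The recovered reads of a library are the sum over these genes and leave out all others.

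The test was limma 3.58.1 under R 4.3.3 (lmFit, eBayes with trend, two-sided). It ran over the 12251 genes that averaged at least 1 FPKM, on log2(FPKM + 1), which understates the change of low genes, and the procedure was tested on simulated data. Intervals are 95% limma intervals. Replicate numbers are shared between groups, but the labels do not say that a number marks a shared batch. The main fit therefore had no block, and a replicate block was fitted as an alternative. Deviations of same-numbered libraries hardly correlated. Between replicates the chi-square per degree of freedom was 6.57 to 9.74. Genes named with values are those past the threshold, the 10 most abundant, 13 fixed by name, up to 3 per other list past the threshold, prd, Abd-B, dve, EbpIII and Gld, and a few neighbours; any others were picked once values were known. The members and lists were chosen with earlier results of these data known. Of the lists, msa, FASN1 and wupA had no matched identifier. Alternatives were other pseudocounts, filters and scalings, voom on recovered reads, a replicate block and leaving out each library. No protein or genomic sequence was used here.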

Additional observations from a re-analysis of the deposited data

How the results depend on the processing

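Rescaling to a common FPKM total gave 826 genes higher and 484 lower over all genes, 4 seminal fluid genes lower with a set median of -0.049, 3 Sex Peptide network genes higher and 0 lower, and 1 other tract transcript lower. Leaving the seminal fluid genes out of that total gave 776 and 484, 4, -0.051, 3 and 0, and 1. The median of all genes tested moved to 0.08 under both. A filter at 5 FPKM and voom on recovered reads each gave 3 network genes higher and 2 lower, and quantile normalization gave 3 higher. Over all genes the filter gave 334 higher and 790 lower, voom 450 and 954, and quantile normalization 399 and 652. With no filter 1 other tract transcript was lower, beside 236 genes higher and 622 lower over all genes. Correlations of deviations of same-numbered libraries were 0.05, -0.08 and 0.03, which do not settle whether a number marks a shared batch. With the replicate block 0 seminal fluid genes were higher and 6 lower, beside 219 higher and 616 lower over all genes. That fit gave 0 network genes higher and 0 lower, and 1 other tract transcript lower. The calls lost with the block were those of Acp32CD (adjusted p = 0.104), Sfp70A4 (0.0682), lectin-46Cb (0.077), aqrs (0.0512) and BG642312 (0.0817). Fits without 1 library gave 135 to 286 genes higher and 428 to 628 lower over all genes, 0 to 1 seminal fluid genes higher and 1 to 10 lower, 0 to 1 network genes higher and 0 to 1 lower, and 1 to 3 other tract transcripts lower. They gave a set median from -0.19 to -0.11 and a log2 ratio of the summed level from -0.33 to -0.21, against -0.26 with all libraries and -0.16 with rescaling. The cause of these shifts was not tested.

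Of 851 values of 57 named genes under the alternatives, 707 kept direction and call, 70 lost a call, 41 gained one and 33 changed sign. The sign changes were in genes near 0. With rescaling, with rescaling without the set, and with quantile normalization, the log2 fold change was 0.023, 0.020 and 0.049 for Acp53Ea, 0.060, 0.057 and 0.101 for Acp53C14a, 0.039, 0.037 and 0.043 for Dup99B, 0.005, 0.002 and 0.007 for Anp, and 0.021, 0.018 and 0.029 for Acp36DE. It was 0.024 and 0.022 for dve with the 2 rescalings and -0.002 for Abd-B with quantile normalization. Fits without 1 library ranged from -0.050 to 0.058 for Acp26Aa, -0.108 to 0.150 for Sfp24Bd, -0.038 to 0.053 for Abd-B, -0.107 to 0.014 for Acp53C14a, -0.182 to 0.016 for Dup99B and -0.148 to 0.019 for Acp36DE.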
